A study of Mus musculus with 11 samples.

Results

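Pax8, Pax2, Lhx1, Emx2, Sox17, Amhr2, Ovgp1, and Foxj1 are genes by which the Mullerian duct, and the oviduct and uterus that grow out of it, are commonly recognised. These 8 of the 28284 genes in the table were taken by name, all were listed, and their counts in every line are given here. mRNA was sequenced from 11 OvTrpMyc cell lines of 7 mice. All lines are labelled Ovgp1-Trp53-R270H-Myc, after a transgene placed at the Trp53 locus that expresses mutant p53 and Myc from a fragment of the Ovgp1 promoter. The mice were heterozygous for it, but the study describes the wild-type Trp53 allele as lost from the lines grown from them, and transcripts with the mutation as missing from the F361 line. Lines were grown ex vivo in RPMI 1640 from minced tissue of mice at euthanasia, were not cloned from single cells as far as the methods say, and received no treatment. There was no line without the transgene, and the ages of the donor mice are not given for the individual lines. The right ovary (ROV) of F318, F319, F326, F339, and F364 and the left ovary (LOV) of F318 and F364 gave the 7 ovary lines, and the uterus of F319 and of F333 the 2 uterus lines. The remaining lines are F326 splenic tumor and F361 peritoneal tumor. In the methods, fallopian tubes were excised along with the ovaries, so an ovary line may have started from either tissue. Thus 4 mice contributed a pair of lines, and each line is represented by 1 library.

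The Mullerian duct arises in the embryo from coelomic epithelium beside the mesonephros. Lhx1, Pax2, Emx2, and Pax8 encode transcription factors of its early formation, and Wnt ligands guide its growth. In males, anti-Mullerian hormone acts through its receptor AMHR2 in the mesenchyme around the duct and causes the duct to regress. In females, Hox genes pattern the duct into oviduct, uterus, and upper vagina. The oviduct epithelium then holds secretory cells, which keep PAX8 and make the oviduct-specific glycoprotein OVGP1, and ciliated cells, which depend on FOXJ1. PAX8 is widely used in pathology to recognise tumors of this lineage.

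Libraries 1 to 7 in the labels (5 ovary lines and both tumor lines) stood apart from libraries 8 to 11, which hold both uterus lines, F339 ROV, and F318 LOV. Library totals were 13580525 to 22333181 counts in libraries 1 to 7 and 21542612 to 27044598 in libraries 8 to 11. Genes of adult skeletal muscle fibers took 6.84% to 12.6% of the counts in libraries 1 to 7 and 0.142% to 1.13% in libraries 8 to 11, with the highest median for Myh4 (16733 CPM) and the lowest for Tnnc2 (1.75 CPM). Although the labels name female organs, the summed level of Y-linked Ddx3y, Eif2s3y, Kdm5d, and Uty was 128 to 174 CPM for the former set of libraries and 1.75 to 19.2 CPM for the latter. CPM is the count divided by the total of its library and scaled to 1000000. The part of these differences in the results below was not tested.

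The promoters of 3 members are shown because of what the data ask of them. Ovgp1 is the gene whose promoter drives the transgene, Amhr2 had the widest ratio between its highest and lowest lines among members with counts in all lines, and Pax8 was high in 1 line. The sequences are from RefSeq on GRCm38.p6, end at the base before the annotated gene, and are written 5′ to 3′ on the strand of the gene. Capitals mark AGGTCA, the core element that many nuclear receptors bind, including the steroidogenic factor encoded by Nr5a1.
Ovgp1, chr3:105973552-105973710, plus strand: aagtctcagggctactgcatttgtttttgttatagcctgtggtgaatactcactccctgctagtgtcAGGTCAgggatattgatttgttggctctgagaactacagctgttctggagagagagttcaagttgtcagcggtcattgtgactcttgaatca
Amhr2, chr15:102445117-102445366, plus strand: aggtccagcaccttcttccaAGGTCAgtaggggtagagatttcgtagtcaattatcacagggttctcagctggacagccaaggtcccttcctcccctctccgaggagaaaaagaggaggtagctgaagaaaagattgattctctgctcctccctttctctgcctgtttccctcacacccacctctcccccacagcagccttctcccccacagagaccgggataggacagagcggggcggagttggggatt
Pax8, chr2:24475600-24475849, minus strand: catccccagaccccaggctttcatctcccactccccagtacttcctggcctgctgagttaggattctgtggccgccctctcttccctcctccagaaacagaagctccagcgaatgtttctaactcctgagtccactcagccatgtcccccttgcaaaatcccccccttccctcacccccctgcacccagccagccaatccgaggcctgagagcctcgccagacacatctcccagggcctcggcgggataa
AGGTCA was present from -183 to -178 in the Ovgp1 window and from -230 to -225 in the Amhr2 window, counted from the RefSeq start site. Searched on both strands, it was found in 14.0% of the 32841 windows of 250 bases before a start site in the mouse. The E-box CACGTG, the element bound by Myc, was in 6.02% of all windows and the TATA box TATAAA in 12.4%, and neither was in a window of the 6 members with an entry (Pax8, Pax2, Lhx1, Emx2, Amhr2, and Ovgp1). The full windows held 3 CpG dinucleotides for Ovgp1, 5 for Amhr2, 6 for Pax8, 24 for Emx2, and 26 for Lhx1, against a median of 6 over all windows.

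Of the 88 values that 8 genes give in 11 lines, 52 were above 3 counts, the limit of detection used here. A level of 3 counts corresponds to 0.111 to 0.221 CPM. Each line had 4 to 6 of the 8 genes above it. Among all genes listed, 48.1% were above 3 counts in all 11 lines and 80.6% in at least 1. At 1 CPM or more in at least 1 line were 16999 of the 28284 genes. Emx2 and Ovgp1 were above 3 counts in all 11 lines, Sox17 and Amhr2 in 10, Foxj1 in 5, Pax8 in 4, Lhx1 in 1, and Pax2 in 0. Per kilobase of annotated exon, the median over the lines was highest for Emx2 at 6.85 CPM per kb, followed by Sox17 at 3.86 and Amhr2 at 3.16. Ovgp1 had a median of 0.407 CPM per kb, Foxj1 of 0.0435, and Pax8 of 0.0209, while Pax2 and Lhx1 had a median of 0. Counts of 2 were far more frequent than counts of 1 or 3 in all libraries, so 95% Wilson intervals were computed as if each pair of counts came from the 2 mates of 1 fragment, which makes them wider. They cover counting error only. In these bulk libraries, fewer cells that express a gene and less of its RNA per cell cannot be told apart.

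**Figure D1:**
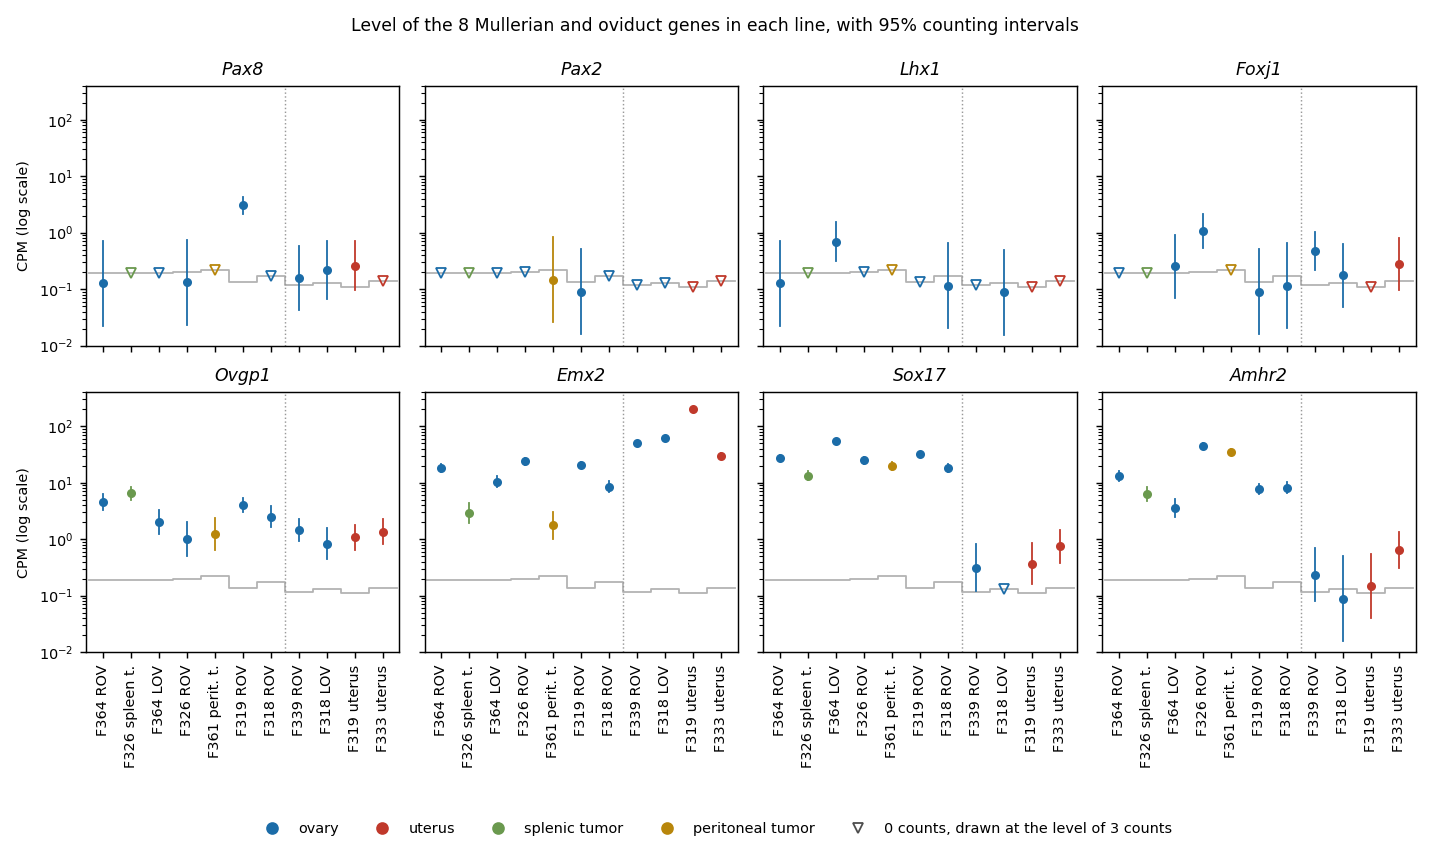
Level of each of the 8 genes (CPM, log axis) in the 11 lines, in the order of the library numbers with a dotted line between libraries 7 and 8. Points are single libraries with 95% Wilson intervals, open triangles are libraries with 0 counts drawn at the level of 3 counts, and the grey steps mark 3 counts. Sox17 and Amhr2 fall to the grey steps or near them to the right of the dotted line, Emx2 lies higher there, and Pax8 rises well clear of the steps only in F319 ROV at 3.04 CPM.

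Pax8 lies on chromosome 2 of GRCm38 from 24420560 to 24475599 on the minus strand. It was near the detection level in every line but F319 ROV, which had 68 counts, or 3.04 CPM (95% Wilson interval 2.18 to 4.25). The F319 uterus line had 7 counts (0.259 CPM, 0.0948 to 0.707), F318 LOV had 5 counts (0.218 CPM), and F339 ROV had 4 counts (0.157 CPM). F364 ROV and F326 ROV had 2 counts each. F326 splenic tumor, F364 LOV, F361 peritoneal tumor, F318 ROV, and F333 uterus had 0 counts, with upper limits of 0.357 to 0.566 CPM. F319 ROV was thus separated from all others by its interval, and the other 10 lines could not be ordered, as the intervals of all their neighbours overlapped. Its level was 11.8-fold that of the next line. Of the 16999 genes that reached 1 CPM in a line, 17 (0.10%) were at least 10-fold higher in F319 ROV than in any other line, and between 0 and 24 genes met this condition in each of the other lines. The noncoding gene Gm13415, which shares 35182 bases with Pax8 on the opposite strand, had 0 to 20 counts.

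F319 ROV, the line with the most Pax8 reads, also had the highest level of several keratin genes and of the mesothelial list. Krt8, a keratin of simple epithelia, was at 52.7 CPM in F319 ROV, and no other line exceeded 0.663 CPM. Muc16, which encodes the CA125 antigen, was at 5.06 CPM there and at most 0.127 CPM elsewhere. Krt18, the partner of Krt8 in the filament, was at 67.9 CPM in F319 ROV, but F364 ROV also had 39.9 CPM. All 7 genes of a list for mesothelium and ovarian surface epithelium had their highest level in F319 ROV, where their sum was 743.6 CPM. In the other lines the sum was from 0.667 CPM in F339 ROV to 92.3 CPM in F364 ROV. Msln (mesothelin) was at 130.1 CPM in F319 ROV against 3.04 CPM in the next line, and the uroplakin genes Upk3b and Upk1b were at 245.9 and 161.2 CPM. Lrrn4, Gpm6a, and Bnc1 were at 81.3, 31.0, and 21.4 CPM in this line, and in the other lines they did not exceed 2.92, 1.65, and 9.28 CPM. Wt1, a transcription factor of the coelomic epithelium and its derivatives, was at 72.7 CPM in F319 ROV, 67.2 CPM in F326 ROV, and 65.6 CPM in F364 ROV, and both of the latter had 2 counts of Pax8. The part of these other cells in the Pax8 level was not tested. Other epithelial genes did not follow this line. Epcam was highest in F339 ROV at 2.12 CPM and Cdh1 (E-cadherin) in F364 ROV at 3.68 CPM, against 0.179 and 1.21 CPM in F319 ROV. Of the 16 oviduct secretory and epithelial genes described below, 4 had their highest level in F319 ROV. The mesenchymal gene Vim was at 214 to 1280 CPM in libraries 1 to 7 and at 2179 to 3504 CPM in libraries 8 to 11, all from lines labelled as ovarian cancer.

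**Figure D2:**
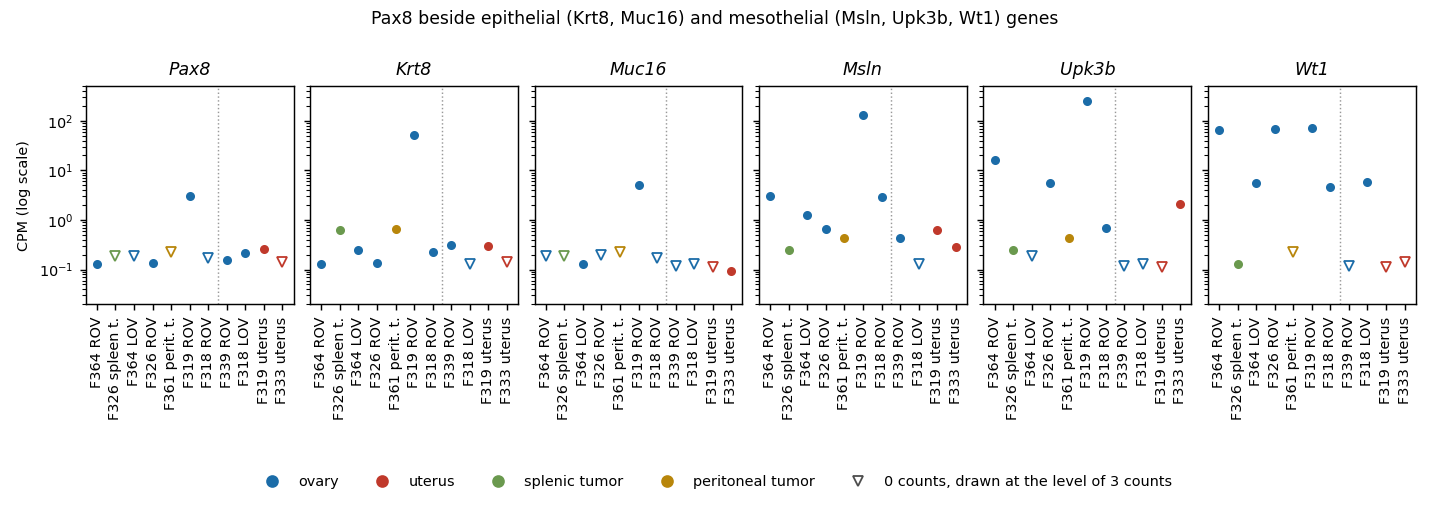
Pax8 beside 2 epithelial genes (Krt8 and Muc16) and 3 mesothelial genes (Msln, Upk3b, and Wt1), in CPM on a log axis, with 1 point per library in the order of the library numbers and a dotted line between libraries 7 and 8. F319 ROV is the highest point in all 6 panels, and Wt1 alone has other lines at a like level.

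Pax2 was at 3 counts or fewer in all lines, and Lhx1 in all but F364 LOV. Pax2, a close relative of Pax8 on chromosome 19 (44756045 to 44837871, plus strand), had 2 counts in F361 peritoneal tumor and 2 in F319 ROV, and 0 counts in the other 9 lines. The upper limit of the Wilson interval at 0 counts was 0.284 CPM in the deepest library, that of the F319 uterus line. Lhx1, a LIM homeobox gene needed for the duct to form, lies on chromosome 11 (84518284 to 84525535, minus strand) and had 11 counts in F364 LOV, or 0.696 CPM (0.309 to 1.57). It had 2 counts in F364 ROV, F318 ROV, and F318 LOV and 0 counts in the other 7 lines. The intervals of all neighbours in the order overlapped for both genes, although the Lhx1 interval of F364 LOV lay above that of the F319 uterus line (0 to 0.284) and that of F339 ROV (0 to 0.301). Of a list of 16 paralogs of the members, 13 were in the table, and 6 of these never reached 1 CPM, Pax5 and Emx1 among them with medians of 0. Lhx6, at up to 9.49 CPM, was the highest LIM homeobox gene of the list. Bmpr2, a receptor of the family of Amhr2, had the highest median of the list at 67.1 CPM, with 44.0 to 89.1 CPM in libraries 1 to 7 against 92.5 to 149 CPM in libraries 8 to 11.

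Emx2, a homeobox gene of the urogenital system and the forebrain, lies on chromosome 19 (59458372 to 59465357, plus strand) and was per kilobase the most highly expressed member in all 4 lines of libraries 8 to 11. Its level in the F319 uterus line was 203 CPM (195 to 211), from 5484 counts. F318 LOV was at 60.9 CPM, F339 ROV at 49.8 CPM, and F333 uterus at 30.2 CPM. In libraries 1 to 7, F326 ROV was at 24.2 CPM, F319 ROV at 20.6 CPM, F364 ROV at 18.0 CPM, F364 LOV at 10.5 CPM, and F318 ROV at 8.45 CPM. The lowest lines were the tumor lines outside the gynecologic tract, F326 splenic tumor at 2.91 CPM (1.94 to 4.37) and F361 peritoneal tumor at 1.77 CPM (1.01 to 3.09), which did not differ beyond their intervals. In this order, the intervals of 5 of 10 neighbouring pairs of lines were apart, among them all neighbours from the F319 uterus line down to F333 uterus. F333 uterus, F326 ROV, F319 ROV, and F364 ROV each overlapped the next of them.

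Emx2 was lower in every line of libraries 1 to 7 than in any line of libraries 8 to 11, with medians of 10.5 and 55.3 CPM, a ratio of 5.27. Among 21616 genes that averaged 1 count or more per line, 20.0% were lower in this way and 13.4% were higher. Emx2 in the same direction is thus 1 case of a frequent pattern. Emx2os, a noncoding gene on the opposite strand that shares 264 bases with Emx2, had 9 to 42 counts in libraries 1 to 7 and 70 to 412 counts in libraries 8 to 11. Emx2os had medians of 1.75 and 9.76 CPM in these sets. Emx2 exceeded Emx2os in all 11 lines, and the ratio of counts ranged from 1.53 in F326 splenic tumor and 2.67 in F361 peritoneal tumor to 13.3 in the F319 uterus line. As the strand setting of the counting is not stated, reads in the shared bases cannot be assigned to either gene.

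**Figure D3:**
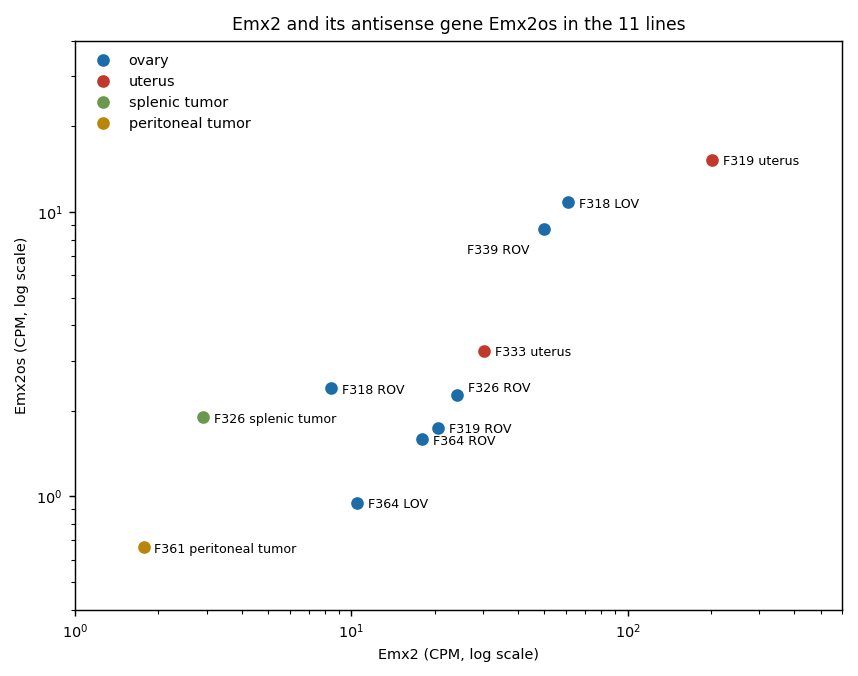
Emx2 (horizontal) and its antisense gene Emx2os (vertical) in CPM, both on log axes, with 1 labelled point per line colored by origin. The F319 uterus line is highest on both axes at 203 and 15.2 CPM, and F361 peritoneal tumor is lowest on both at 1.77 and 0.663 CPM.

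Sox17, a SOX transcription factor of the endoderm and the endothelium that also marks Mullerian epithelium, lies on chromosome 1 (4490931 to 4497354, minus strand). F364 LOV had the highest level at 55.3 CPM (50.4 to 60.7), from 874 counts. F319 ROV was at 31.7 CPM, F364 ROV at 27.5 CPM, F326 ROV at 25.2 CPM, F361 peritoneal tumor at 19.6 CPM, F318 ROV at 18.4 CPM, and F326 splenic tumor at 13.4 CPM. Below F364 LOV, each line of libraries 1 to 7 overlapped the next in its interval. In libraries 8 to 11, F333 uterus had 16 counts (0.743 CPM), the F319 uterus line 10 counts (0.370 CPM), F339 ROV 8 counts (0.314 CPM), and F318 LOV 0 counts, with an upper limit of 0.335 CPM. Sox17 was therefore higher in every line of libraries 1 to 7, with a median of 25.2 against 0.342 CPM, a ratio of 73.9. Genes that separate the library sets in this direction made up the 13.4% given above.

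Genes of endothelial cells were high in the same libraries. The 9 genes of an endothelial list summed to 94.7 to 348 CPM in libraries 1 to 7 (median 314) and to 2.88 to 239 CPM in libraries 8 to 11 (median 13.1), and 5 of the 9 were higher without overlap, where 13.4% of all genes were. Pecam1 (CD31) ranged from 37.6 to 94.3 CPM in the former and from 0.349 to 7.84 CPM in the latter. Sox18, a relative of Sox17 in endothelium, was at 0.888 to 30.0 CPM and at 0.0873 to 0.743 CPM. Sox7, which is related to both, had the lowest median of the list at 1.83 CPM. F339 ROV had 61.9 CPM of Cdh5 (VE-cadherin) and 154 CPM of Emcn (endomucin), the latter its highest level in any line, with 0.863 CPM of Tie1 and 8 counts of Sox17. In F318 LOV, where Sox17 was at 0 counts, Emcn was also at 0 and the list summed to 2.88 CPM. The part of endothelial cells in the Sox17 level was not tested.

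Amhr2, which encodes the type II receptor of anti-Mullerian hormone, lies on chromosome 15 (102445367 to 102454633, plus strand). It was highest in F326 ROV at 45.5 CPM (40.9 to 50.6), from 681 counts, and next in F361 peritoneal tumor at 34.6 CPM (30.5 to 39.3). F364 ROV was at 13.2 CPM, F318 ROV at 8.16 CPM, F319 ROV at 7.79 CPM, F326 splenic tumor at 6.33 CPM, and F364 LOV at 3.54 CPM. The intervals of the 3 highest lines were apart from each other and from the rest, while F318 ROV, F319 ROV, F326 splenic tumor, and F364 LOV each overlapped the next. In libraries 8 to 11, F333 uterus had 14 counts (0.650 CPM), F339 ROV 6 counts (0.235 CPM), the F319 uterus line 4 counts (0.148 CPM), and F318 LOV 2 counts (0.0873 CPM). As with Sox17, no line of one library set reached the other, with medians of 8.16 and 0.192 CPM, a ratio of 42.6.

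In the gonad, Amhr2 is a gene of granulosa and Sertoli cells. Nr5a1, which encodes a gonadal nuclear receptor, was at 38.4 CPM in F326 ROV, 18.6 CPM in F364 ROV, 14.4 CPM in F364 LOV, and 4.11 CPM in F318 ROV, and had 0.358 CPM or less in the other lines. Star, a gene of steroid synthesis, was at 48.7 CPM in F326 ROV and did not exceed 8.88 CPM elsewhere. Inhbb, an inhibin subunit gene, had the highest median of the list, 20.2 CPM. F361 peritoneal tumor and F326 splenic tumor had 0 counts of Nr5a1 and of the granulosa cell gene Foxl2 beside 470 and 100 counts of Amhr2. The 7 listed granulosa and gonadal genes in the table summed to 13.4 to 269 CPM in libraries 1 to 7. In libraries 8 to 11 they summed to 41.7 to 79.4 CPM. Of the 7, 0 separated the sets, beside 13.4% of all genes higher and 20.0% lower in libraries 1 to 7. Fshr and Cyp19a1 of this list were not among the listed symbols. The part of gonadal cells in the Amhr2 level was not tested.

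**Figure D4:**
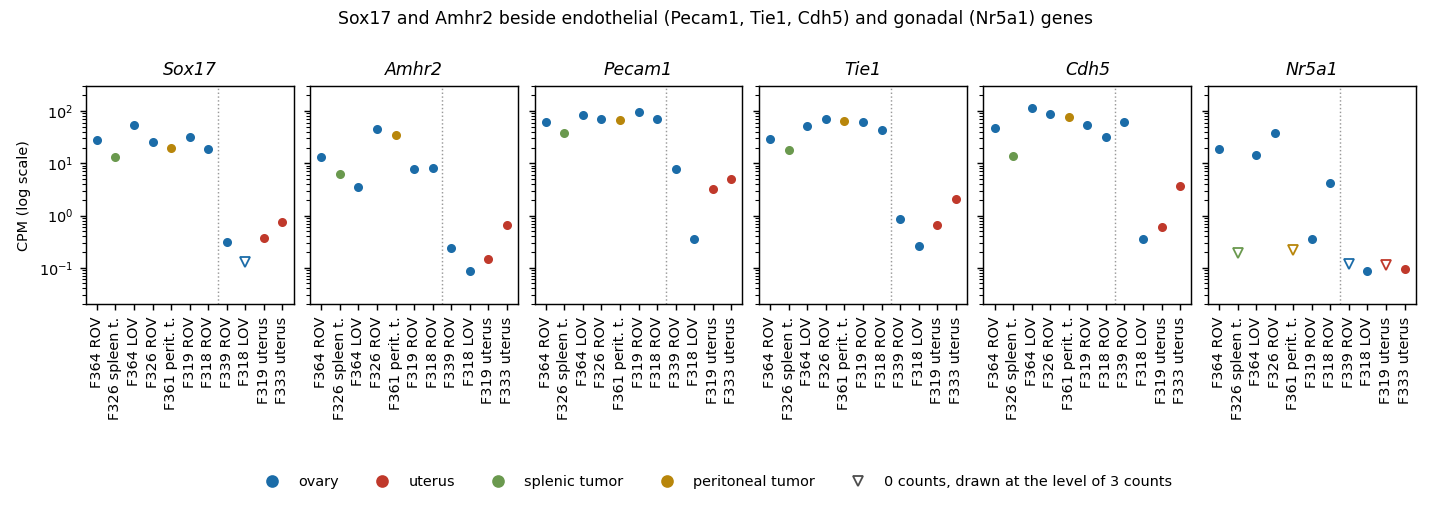
Sox17 and Amhr2 beside the endothelial genes Pecam1, Tie1, and Cdh5 and the gonadal gene Nr5a1, in CPM on a log axis, with 1 point per library in the order of the library numbers and a dotted line between libraries 7 and 8. Sox17, Amhr2, Pecam1, and Tie1 are lower in all 4 lines to the right of the dotted line than in any to the left, Cdh5 is not, since F339 ROV is at 61.9 CPM, and Nr5a1 is at 0 counts in 4 lines (open triangles).

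The hormone that binds Amhr2 was scarce. Amh was at 0.175 to 1.33 CPM in all lines but F326 ROV, which had 3.94 CPM. In a list of 12 genes of the ligand, type I receptors, SMAD proteins, and targets, 8 were at 1 CPM or more in all 11 lines and 0 were below 1 CPM in all. Ctnnb1 (beta-catenin) had the highest median, 312 CPM, and Sp7 (osterix) the lowest, 0.127 CPM. The type I receptor genes Bmpr1a and Acvr1 were at 53.7 to 77.0 and 14.8 to 38.9 CPM in libraries 1 to 7 and higher in every line of libraries 8 to 11, at 77.8 to 143 and 61.0 to 116 CPM. Acvr1b, a type I receptor of activin, was higher in libraries 1 to 7 at 78.3 to 367 CPM against 13.6 to 26.6 CPM. Mmp2, a protease induced during duct regression, was at 631 CPM in F339 ROV and 434 CPM in F318 LOV, against a median of 62.0 CPM over the 11 lines. In all, 1 of the 12 genes was higher in libraries 1 to 7 and 3 were lower without overlap, beside 13.4% and 20.0% of all genes.

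Of a list of 13 other regulators of the Mullerian duct, 2 (Wnt4 and Dach1) were higher in every line of libraries 1 to 7 and 4, among them Osr1, Hoxa9, and Hoxa10, were lower, where 13.4% and 20.0% of all genes were. Wnt4, whose product is needed for the duct to invaginate, was at 39.7 to 123 CPM in libraries 1 to 7 and at 2.59 to 11.6 CPM in libraries 8 to 11. Wnt7a and Wnt9b, ligands of the duct and Wolffian epithelium, never exceeded 3 counts. Among the genes that pattern the duct along its length, Hoxa11, a gene of the uterus, was at 48.1 CPM in F333 uterus and 41.7 CPM in the F319 uterus line, while F318 LOV had 22.3 CPM and the remaining lines did not exceed 4.87 CPM. Hoxa10 was at 47.5 and 64.3 CPM in lines from a uterus and 12.4 to 39.2 CPM in lines from an ovary. Hoxa9 was at 28.0 CPM in the F319 uterus line and 27.6 CPM in F333 uterus, and F318 LOV had 28.8 CPM. Hoxa13, the most posterior of these genes, was at 7.03 CPM in the F319 uterus line and at 0.186 CPM in F333 uterus, the lowest level of any line. Dach2 was at 41.6 CPM in F318 LOV and at 3.81 CPM or less elsewhere. Because the kidney shares Pax2, Pax8, Emx2, and Lhx1 with the duct, a list of 9 kidney and mesonephric genes was also read. Of the 8 in the table, 4 never reached 1 CPM, Eya1 had the highest median at 7.85 CPM (6.20 to 23.8 CPM in libraries 1 to 7 against 0 to 2.16 CPM in libraries 8 to 11), and Ret was at 45.6 CPM in F318 LOV and 35.3 CPM in F333 uterus.

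Ovgp1, the oviduct glycoprotein gene on chromosome 3 (105973711 to 105987423, plus strand), was detected at a low level in all lines. F326 splenic tumor had the most, 103 counts or 6.52 CPM (4.96 to 8.56). F364 ROV was at 4.50 CPM, F319 ROV at 4.07 CPM, F318 ROV at 2.51 CPM, F364 LOV at 2.02 CPM, F361 peritoneal tumor at 1.25 CPM, and F326 ROV, with 15 counts, was the lowest of this set. In libraries 8 to 11, F339 ROV was at 1.45 CPM, F333 uterus at 1.35 CPM, the F319 uterus line at 1.07 CPM, and F318 LOV at 0.829 CPM (0.444 to 1.55). The sets overlapped, with medians of 2.51 and 1.21 CPM. Every line overlapped the next in the order of the levels, although the ends of the order were apart. The noncoding gene Gm42890 shares 10890 bases with Ovgp1 on the same strand and had 1 to 15 counts. The genes that the transgene expresses from the Ovgp1 promoter are Trp53, at 10.4 to 52.0 CPM, and Myc, at 6.92 to 93.6 CPM in libraries 1 to 7 against 153 to 291 CPM in libraries 8 to 11. Their counts do not separate the transgene from the native genes.

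In a list of 16 genes of the oviduct secretory cell and its epithelium, 1 was at 1 CPM or more in all lines (Esr1, the estrogen receptor gene, with the highest median of 9.99 CPM) and 5 never reached 1 CPM, among them Wfdc2 (HE4) with a median of 0. Among all 28284 genes, 16999 reached 1 CPM in at least 1 line. Each line had 3 to 9 of the 16 at 1 CPM or more, and F319 ROV had the most. The F319 uterus line had 87.0 CPM of Esr1 and 58.2 CPM of Pgr, the progesterone receptor gene. Krt7, a keratin of duct epithelium, was at 16.6 CPM in this line, 40.5 CPM in F333 uterus, and 12.0 CPM in F319 ROV, and at 1.83 CPM or less elsewhere. Folr1 was at 10.1 CPM in F326 ROV and 6.90 CPM in F319 ROV. A list of 8 uterine epithelial genes had 2 that never reached 1 CPM. Its highest median was that of Lif, 5.80 CPM, and its lowest that of Ltf, 0. Msx2 of this list was at 15.0 CPM in F318 LOV and 12.0 CPM in the F319 uterus line, against a median of 0.157 CPM. Foxa2, a gene of uterine glands, was at 0.147 to 12.4 CPM in libraries 1 to 7 and at most 0.0392 CPM in libraries 8 to 11. In the former set, F361 peritoneal tumor had 2 counts and F326 splenic tumor had 3 counts, so both tumor lines were at the detection limit as well.

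Foxj1, the regulator of motile cilia, lies on chromosome 11 (116330704 to 116335399, minus strand) and had few reads. F326 ROV had 16 counts or 1.07 CPM (0.541 to 2.11), and F339 ROV had 12 counts or 0.471 CPM. F333 uterus had 6 counts, F364 LOV and F318 LOV had 4 counts each, and F319 ROV and F318 ROV had 2 counts each. The other 4 lines had 0 counts, and the intervals of all neighbours overlapped. Of 24 genes of ciliated cells, 21 were in the table, 7 of these never reached 1 CPM, and 4 did so in every line. Of all 28284 genes, 16999 reached 1 CPM in at least 1 line. The axonemal dynein gene Dnah5 had a median of 0. Cfap43 had the highest median, 28.8 CPM, and followed the library sets, at 2.58 to 44.9 CPM in libraries 1 to 7 and at 47.4 to 192 CPM in libraries 8 to 11, where the uterus lines were above the ovary lines. In all, 3 of the 21 genes (Tekt1, Tppp3, and Rsph1) were higher in libraries 1 to 7 and 2 (Cfap43 and Rfx3) were lower without overlap, beside 13.4% and 20.0% of all genes. Each line had 5 to 10 of the 21 genes at 1 CPM or more.

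Lines of the same mouse differed in several members by more than their counting error. In F326, the ovary line exceeded the splenic tumor line in Emx2 8.30-fold (95% exact binomial interval over read pairs 5.36 to 13.4) and in Amhr2 7.18-fold (5.33 to 9.87), while Ovgp1 was 6.51-fold higher in the splenic tumor line (3.01 to 16.4). In F364, whose lines were both sequenced in libraries 1 to 7, Amhr2 was 3.72-fold higher in the right ovary line (2.43 to 5.87) and Sox17 was 2.01-fold higher in the left (1.71 to 2.38). The lines of F318 and of F319 lie on either side of the library split, which cannot be told apart from the side or organ of origin there. In F319, the uterus line had 9.87-fold more Emx2 than the ovary line (8.62 to 11.3), and the ovary line had 85.9-fold more Sox17 (36.4 to 266) and 11.8-fold more Pax8 (3.97 to 51.3). In F318, Emx2 was 7.21-fold higher in the left ovary line (5.66 to 9.29), and Sox17 had 0 counts there against 323 in the right, a ratio whose interval began at 56.6. With 1 library per line, these intervals do not measure how far repeated cultures would vary.

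To ask whether organ of origin separated the lines, the 2 uterus lines were compared with the 7 ovary lines in edgeR's quasi-likelihood test with Benjamini-Hochberg adjustment. No gene passed an adjusted p under 0.05 (0 of 17446, 0%), and 2308 (13.2%) had an unadjusted p under 0.05. The latter count depended on single lines. It was 1452 (8.57%) without F319 ROV, 1514 (8.73%) without F364 ROV, 3989 (23.4%) without F339 ROV, and 4828 (28.3%) without F318 LOV. It was 847 (4.85%) with the library set as a covariate and 522 (3.35%) in libraries 8 to 11 alone. DESeq2 called 1315 of 18113 genes (7.26%), of which 1146 (6.33%) were lower in the uterus lines. Of the members, Pax8, Pax2, and Lhx1 did not pass the filter on low counts. The uterus lines had 30.2 and 203 CPM of Emx2 and the ovary lines 27.5 ± 20.1 CPM (SD, n = 7), with overlap. Its log2 fold change of uterus over ovary was 1.91 ± 0.68 (SE, edgeR adjusted p = 0.359), and it was 0.15 without the F319 uterus line. For Sox17, these levels were 0.370 and 0.743 CPM against 22.6 ± 19.2 CPM (SD, n = 7). Its log2 fold change was -5.63 ± 2.46 (SE, edgeR adjusted p = 0.359), and DESeq2 gave an adjusted p of 0.0185. Amhr2 was at 0.148 and 0.650 CPM against 11.2 ± 15.8 CPM (SD, n = 7), with a log2 fold change of -5.08 ± 2.37 (SE, edgeR adjusted p = 0.359) and an adjusted p of 0.0264 in DESeq2.

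With the library set as a covariate, Sox17 and Amhr2 had log2 fold changes of the opposite sign, 1.82 ± 1.04 and 1.34 ± 1.39 (SE, edgeR adjusted p = 1 for both). The ovary lines within libraries 8 to 11, F339 ROV and F318 LOV, had 8 and 0 counts of Sox17 and 6 and 2 counts of Amhr2, beside 10 and 16 counts of Sox17 and 4 and 14 counts of Amhr2 in the uterus lines. The uterus lines had 1.07 and 1.35 CPM of Ovgp1 and the ovary lines 2.34 ± 1.45 CPM (SD, n = 7), a log2 fold change of -1.17 ± 0.81 (SE, edgeR adjusted p = 0.431), and it was 0.16 with the covariate. Foxj1, with at most 16 counts, had a log2 fold change of -1.29 ± 1.60 (SE, edgeR adjusted p = 0.634). Of the 5 members tested, Emx2 and Sox17 had an unadjusted p under 0.05 in edgeR without the covariate, as 13.2% of all genes tested did. The median log2 fold change of the 5 was -1.29 against -0.048 over all genes tested.

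**Figure D5:**
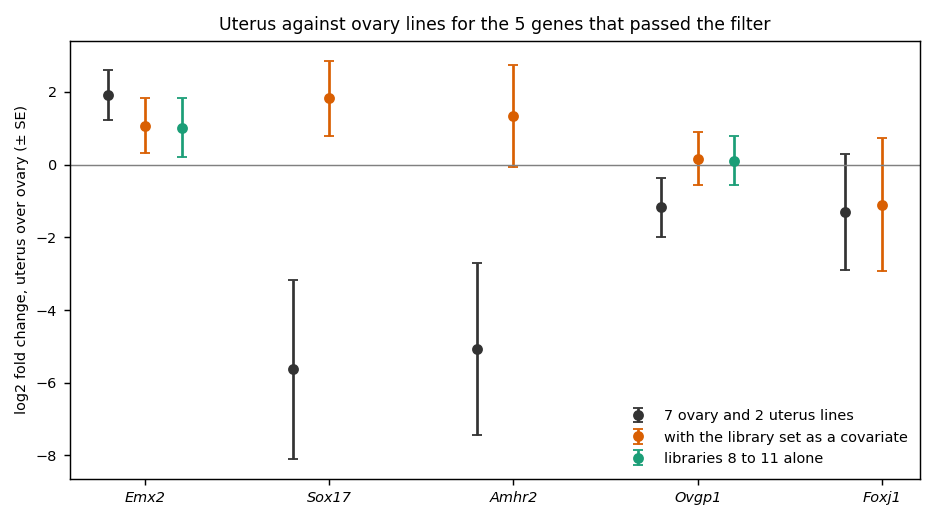
Log2 fold change of uterus over ovary lines (points) with its SE (bars) for the 5 genes that passed the filter, from all 9 ovary and uterus lines, with the library set as a covariate, and from libraries 8 to 11 alone. Sox17, Amhr2, and Ovgp1 change sign with the covariate, Emx2 keeps a positive sign, and the fit on libraries 8 to 11 gave values only for Emx2 and Ovgp1.

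The surrounding lists also had 0 genes past the adjusted threshold. At an unadjusted p under 0.05, which 13.2% of all genes reached with all of these lines and no covariate, 4 of 10 tested Mullerian duct regulators differed, with Hoxa11 (2.78 ± 0.75, SE) and Hoxa10 (1.27 ± 0.41) higher in the uterus lines and Wnt4 (-4.64 ± 1.28) and Wnt5a (-2.37 ± 0.75) lower, as log2 fold changes. In the AMH pathway it was 1 of 12, Acvr1b. Among ciliated cell genes it was 4 of 12, all higher by log2 fold change (Myb, Dnaic2, Ccdc40, and Cfap43), with a median over the list of 0.66. Ccdc40 and Cfap43 were higher in both uterus lines than in any ovary line. Myb was at 3.18 CPM in the F319 uterus line but at 0.0928 CPM in F333 uterus, against 0.524 CPM in F318 LOV. Dnaic2 was at 1.02 CPM in F333 uterus and 1.03 CPM in F318 ROV. Among secretory genes, 1 of 10 had an unadjusted p under 0.05, Krt7. Among endothelial genes, 5 of 9 of which were higher in every line of libraries 1 to 7, it was 6 of 9, all lower, and the median was -4.03.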

How the data were processed

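Poly(A) RNA of 11 OvTrpMyc lines was made into libraries with a directional kit. With RNA STAR, the authors mapped paired-end reads to GRCm38 (mm10), they removed duplicates with SAMtools RmDup, and they deposited raw counts per gene from featureCounts, without normalization. Versions and the strand setting are not given in the sources used here. Between 74.0% and 82.2% of counts from 1 to 10 were even, as when both mates of a pair are counted, and intervals were therefore computed on pairs. No columns were identical.

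Groups came from sample titles. The genes and marker lists were chosen with earlier results of these data known. Lists covered Mullerian regulators, the AMH pathway, secretory, ciliated, uterine, endothelial, gonadal, mesothelial, kidney, mesenchymal, and muscle genes, and paralogs. Named from each list were the genes of highest and lowest median and those above 10 CPM in a line and 10-fold above their median. Others named singly were chosen after their values were seen. The other genes of the lists are given only as counts, and some items are not reported here. The library sets were compared by overlap alone, without a test. Uterus and ovary lines were compared with edgeR 4.0.16 (quasi-likelihood, TMM, filterByExpr, adjusted p under 0.05) in R 4.3.3, with DESeq2 1.42.0 as an alternative. The edgeR fit alone was also run on simulated counts without library sets or shared mice, which are simpler than these data. The SE given with edgeR is the absolute log2 fold change divided by the square root of the F statistic, an approximation. P-values do not account for lines that share a mouse, except in a fit with the mouse as a block. Levels and intervals were computed with pandas 2.3.3, numpy 2.4.6, and scipy 1.17.1 in Python 3.11.15, and figures drawn with matplotlib 3.10.9. Gene positions came from GENCODE M21, and promoter windows from RefSeq, of 250 bases before the start, trimmed at the annotated gene. Other alternatives were another normalization, no filter, lines left out, library sets, and summed lines of a mouse, and for levels the denominator and the count taken as detected.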

Additional observations from a re-analysis of the deposited data

Results flagged for a closer look

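Within the 7 ovary lines, 4 genes had a line whose distance from the nearest other line took up more of the group's range than Dixon's critical value of 0.568 allows. For normally distributed values, about 1 in 20 groups is flagged in this way by chance. Several of these levels lie near 0 counts, so that rate cannot be applied to them. A gene with counts in only 1 ovary line is always flagged. Whether the flags exceed chance was not tested. Pax8 was at 3.04 CPM in F319 ROV, and the next ovary line was at 0.218 CPM, a gap of 0.928 of the range. Amhr2 was at 45.5 CPM in F326 ROV against 13.2 CPM in F364 ROV, a gap of 0.711. Lhx1 was at 0.696 CPM in F364 LOV, from 11 counts, with a gap of 0.818. Pax2 was at 0.0896 CPM in F319 ROV, which is 2 counts where the other ovary lines had 0, so that the gap was the whole range and the value lies below the level of 3 counts.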

How the results depend on the processing

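Of 218 values recomputed under an alternative, 208 kept their direction and their side of the threshold or moved by less than the spread between lines. This rule is lenient, since that spread exceeds the median level of several members. The Amhr2 median of 6.33 CPM over all lines and 0.192 CPM in libraries 8 to 11 alone counted as kept, with an SD of 15.2 CPM. So did the log2 fold change of Emx2, 1.91 with all lines and 0.15 without the F319 uterus line. The number of genes called between uterus and ovary lines, 0 in edgeR, was 1315 with DESeq2, 2 without the filter on low counts (Col10a1 and Tmem176b), and 0 when an ovary line was left out. Without a uterus line, that group has 1 library and no spread of its own, so no count is given. DESeq2 brought Sox17 (log2 fold change -5.69) and Amhr2 (-5.12) past the threshold. With the library set as a covariate, the log2 fold change was 1.82 for Sox17, 1.34 for Amhr2, and 0.16 for Ovgp1, all reversed, and Ovgp1 was also reversed in libraries 8 to 11 alone, at 0.11. Leaving out lines gave log2 fold changes of 0.15 to 2.69 for Emx2 (the former without the F319 uterus line), -6.31 to -5.12 for Sox17, -6.59 to -3.99 for Amhr2, -1.43 to -0.88 for Ovgp1, and -5.79 to -0.23 for Foxj1, which passed the filter in 5 of these 9 fits. The median level of Sox17 was 18.4 CPM over all lines and 0.342 CPM in libraries 8 to 11 alone, an alternative chosen after seeing the data. At 6 counts as the level of detection, also chosen then, 45 of the 88 values were above it, and at 10 counts 42 were. The cause of these changes was not tested. The mouse as a block, also added then, changed no call (0 genes, 1501 at an unadjusted p under 0.05), with log2 fold changes of 3.03 for Emx2, -6.67 for Sox17, -5.93 for Amhr2, -2.19 for Ovgp1, and -4.04 for Foxj1. Only F319 gave both organs, so this contrast rests on its pair of lines, with 2 residual degrees of freedom. The median of Pax8, 0.127 CPM over all lines, was 0.0634 to 0.130 CPM with 1 line left out and 0 in libraries 1 to 7 alone. At counts as low as those of Pax8, Pax2, Lhx1, and Foxj1 in most lines, depth limits what can be compared, and with 1 library per line the spread within a line is unknown.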

Other observations

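For each member that reached 1 CPM in a line, the genes whose log2(CPM + 1) was most like it over the 11 lines were named, by Pearson's r among about 14665 genes with a mean of at least 1 CPM. These correlations are descriptions, since lines of the same mouse and of the same library set share more than a gene. Pax8 was most like Sez6l (r = 0.97), Upk1b, Krt8, Tmem108, and Lrrn4, of which Upk1b and Lrrn4 are on the mesothelial list. F319 ROV far exceeded all other lines in Pax8, Upk1b, Krt8, and Lrrn4, so their likeness rests largely on that line. Sox17 was most like Robo4, an endothelial guidance receptor (r = 0.99), followed by Prkch, Nup210, Ccdc85a, and Pitx3. Amhr2 was most like Esrrb, an orphan nuclear receptor gene (r = 0.99), followed by 2900076A07Rik, Raver2, Plpp7, and Fzd9. Emx2 was most like Gm5846 (r = 0.95), Dab2, St6gal1, Nrm, and Sec23b, and within libraries 1 to 7 it was most like Edn1 (r = 0.98), Tmc6, and Wt1 (r = 0.97). Ovgp1 was most like Gfer (r = 0.95), Psmd6, Xpa, Dnajb12, and Abcf2, and Foxj1 was most like Sprr1a (r = 0.87), Wfdc18, Dpysl4, Lrp11, and Serinc5. Within libraries 1 to 7 alone, the nearest gene was Osgin1 for Sox17 (r = 0.98) and Gpc1 for Amhr2 (r = 0.99). Tnfsf18 and Taf7l were tied for Pax8 (r = 0.99), and since both had counts in F319 ROV alone among these libraries, that value rests on 1 line.

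Genes of mesenchymal cells were the most highly expressed of the lists beside muscle. The 12 genes summed to 1428 to 15876 CPM in libraries 1 to 7 and to 20320 to 35737 CPM in libraries 8 to 11, and 7 of the 12 were lower in every line of the former than in any of the latter, as 20.0% of all genes were. Col1a1 had the highest median, 2247 CPM, and S100a4 the lowest, 0.696 CPM. Col1a2 was at 7760 CPM in F333 uterus and 6109 CPM in F318 LOV, with its lowest level, 5.21 CPM, in the F319 uterus line. Snai2, a transcription factor of the mesenchymal state, was at 122 CPM in F339 ROV and 103 CPM in F318 LOV against a median of 8.99 CPM over all lines, with 1.34 to 25.7 CPM in libraries 1 to 7 against 73.1 to 122 CPM in libraries 8 to 11.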
